A study of Ovis aries with 6 samples.

Results

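The choroid plexus of thyroidectomised ewes kept in long days (THX) was compared with that of control ewes, which kept their thyroid, in short days (Short). The 2 groups were chosen by their labels and hold 4 of the 6 pools of the series, 2 each, and 18019 of the 33609 listed genes passed a filter on low counts by group and were tested. Day length and thyroid state differ together between these groups, so each difference is the sum of a day-length part and a thyroid part. The other 2 pools, from control ewes in long days (Long), served to estimate the spread and are given side by side. All 3 groups are ewes (Ovis aries), and the sources used here give no breed, age or time since surgery. PolyA RNA was extracted from each ewe and combined in equal amounts into pools of 3 to 4 ewes. The design text gives 24 ewes, with 8 in each group except 7 in the THX group, which adds up to 23.

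The choroid plexus is a folded epithelium on a stroma of vessels and fibroblasts in the brain ventricles. It secretes cerebrospinal fluid, transports ions, nutrients and hormones between blood and that fluid, and makes transthyretin, a carrier of thyroid hormone. Thyroid hormone acts through nuclear receptors that pair with retinoid X receptors and raise or lower the transcription of target genes, and in sheep it takes part in the seasonal control of breeding.

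Each pool is an average of several ewes, so a p-value here reflects how much pools vary, not how much ewes vary. Levels are CPM, counts divided by the TMM-scaled library total and put on a common scale, and they compare pools for 1 gene, not 1 gene with another, since counts also depend on transcript length. Totals ran from 48282883 to 82100653 counts per pool. On a principal component analysis of the tested genes, THX pool 2 (46.8) and Short pool 1 (−41.8) lay at the ends of the first component, which held 29.8% of the variance. THX pool 1 lay apart from the other pools on the second component (−53.4, 26.5% of the variance). Of the 28 chosen markers of choroid plexus epithelium 26 were tested, and their summed level was 103655 and 108518 CPM in the Short pools and 134672 and 156728 CPM in the THX pools. Without the transthyretin gene TTR the other 25 summed to 17258 and 15809 CPM in the Short, 15510 and 15855 in the Long and 15800 and 16021 in the THX pools. Of the 26, 16 were below 0 and 10 above, with a median log2 difference between THX and Short of −0.09. In the test described next 5 of the 26 passed, 19.2% against 0.916% of all tested genes. HTR2C, KL and CAB39L were lower and IGFBP2 and SOSTDC1 higher in THX than in Short pools. In bulk RNA, fewer cells of a type and less RNA per cell cannot be told apart.

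Of the tested genes, 165 (0.916%) differed between THX and Short pools at an adjusted p under 0.05 in edgeR's quasi-likelihood test, of which 57 (0.316%) rose and 108 (0.599%) fell. Here rose and fell mean higher or lower in THX than in Short pools past that threshold. The genes that rose had a median log2 difference of 0.74 and those that fell a median of −0.94, against −0.01 over all tested genes. Of the 165, 69 changed at least 2-fold, 17 of them upwards and 52 downwards. The 2 groups of pools did not overlap in any of the 165 genes, nor in 52.5% of all tested genes. With library totals in place of TMM scaling, the median of all genes moved to −0.11 and the calls split into 49 higher and 210 lower, so directions below are relative to TMM scaling.

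The number of calls rested on single pools. Leaving out a Short pool gave 10 (pool 1) or 36 (pool 2) calls, leaving out either Long pool gave 16, and leaving out a THX pool gave 1087 (pool 1) or 80 (pool 2). All 165 genes passed without THX pool 1, and 103 of them passed in no other of these 6 fits. The 9 genes that passed in all 6 fits fell: GALNT14, HR, NOXO1, CDH23, CPM (carboxypeptidase M), KLF9, MLXIPL, HTR2C and LOC114115315, which has no gene name.

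**Figure D1:**
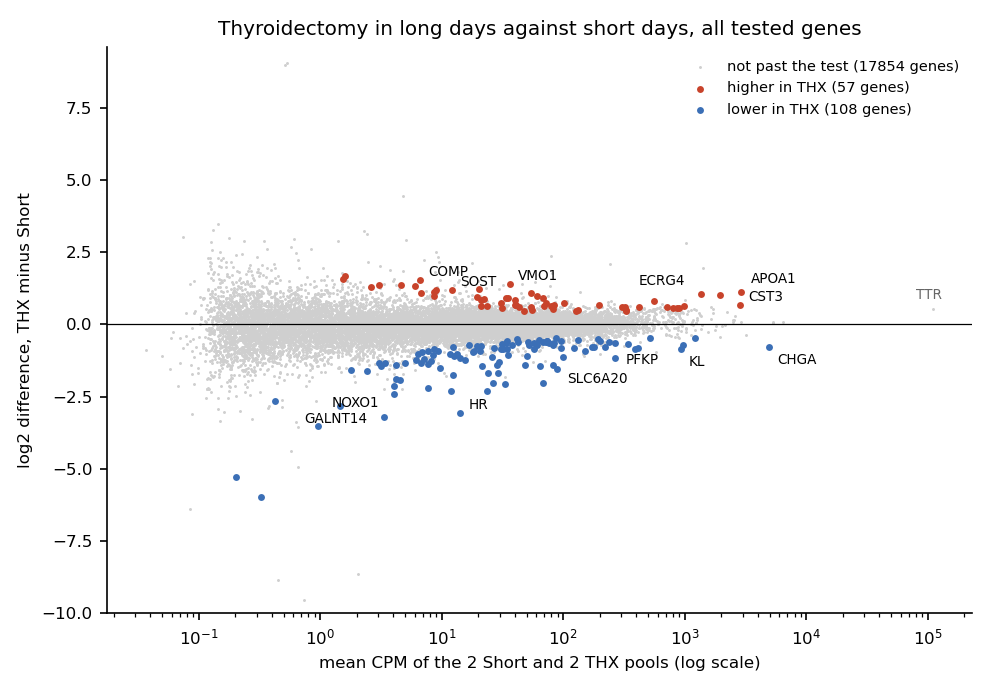
Log2 difference between THX and Short pools (vertical axis) against mean CPM over the 4 pools (horizontal axis, log scale) for the 18019 tested genes, with the 57 that rose in red and the 108 that fell in blue. HR lies at −3.06 and GALNT14 at −3.19, and the 2 lowest blue points are genes with under 1 CPM.

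The transcription factors and cofactors HR, KLF9 and MLXIPL, all known to respond to thyroid hormone, fell in the THX pools. HR, a corepressor of the thyroid hormone receptor that is itself induced by the hormone, had 25.6 and 25.3 CPM in Short, 23.7 and 23.4 in Long and 3.36 and 2.76 in THX pools. Both THX pools lay far below the other 4, and HR fell 8.31-fold (log2 difference −3.06 with SE 0.128, adjusted p = 0.0011). KLF9, a zinc-finger transcription factor induced by thyroid hormone and by glucocorticoids, had 99.98 and 88.3 CPM in Short, 93.2 and 89.9 in Long and 36.1 and 34.1 in THX pools. It fell 2.68-fold (log2 difference −1.43 with SE 0.0893, adjusted p = 0.00437). MLXIPL encodes ChREBP, a glucose-sensing transcription factor whose gene responds to thyroid hormone in liver. It had 128 and 109.9 CPM in Short, 119 and 120.3 in Long and 42.7 and 47.9 in THX pools, and fell 2.62-fold (log2 difference −1.39 with SE 0.101, adjusted p = 0.00595).

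These were the 3 of 29 tested members of the thyroid hormone responsive list that passed the test, 10.3% against 0.916% of all tested genes. Of the 29, 21 were below 0 and 8 above, with a median log2 difference of −0.28 against −0.01 over all genes, of which 51% were below 0 and 49% above. The type 1 deiodinase gene DIO1, which responds to the hormone in liver, was near the limit of detection at 0.154 and 0.139 CPM in the Short and 0.229 and 0.105 CPM in the THX pools (log2 difference 0.16 with SE 0.574, adjusted p = 0.888). Its estimate turned to −0.47 without THX pool 1. The inactivating deiodinase DIO3 was not tested, with 8 and 3 counts in Short, 10 and 5 in Long and 3 and 0 in THX pools.

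The receptors of the hormone did not pass the test. THRA had 175 and 189 CPM in Short, 197 and 191 in Long and 224 and 235 in THX pools (log2 difference 0.34 with SE 0.075, adjusted p = 0.0841). THRB had 24.9 and 19.6 CPM in Short, 13.4 and 13.5 in Long and 16.6 and 12.4 in THX pools (log2 difference −0.62 with SE 0.174, adjusted p = 0.122). For THRA the THX pools were above and for THRB below both Short pools, and for THRB the Long pools lay within the range of the THX pools. Among 18 tested receptors, partners and coregulators HR alone changed (5.56% against 0.916% of all genes). Among 13 tested carriers, transporters and deiodinases of the hormone none changed. The carrier gene TTR had 86397 and 92709 CPM in Short, 107613 and 109231 in Long and 118872 and 140707 in THX pools, a 1.45-fold difference of non-overlapping pools that stayed outside the threshold (log2 difference 0.54 with SE 0.0953, adjusted p = 0.058).

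Beside HR, the genes that fell at least 4-fold included GALNT14, NOXO1 and CDH23. GALNT14, an enzyme that starts mucin-type O-glycosylation, had 6.68 and 5.28 CPM in Short, 8.42 and 9.03 in Long and 0.722 and 0.587 in THX pools. It fell 9.14-fold (log2 difference −3.19 with SE 0.217, adjusted p = 0.00553). NOXO1, the organiser subunit of NADPH oxidase 1, had 6.62 and 6.95 CPM in Short, 7.05 and 7.34 in Long and 1.197 and 1.34 in THX pools. It fell 5.35-fold (log2 difference −2.42 with SE 0.17, adjusted p = 0.00553). NOXO1 was the 1 of 32 tested genes for antioxidant enzymes, selenoproteins and NADPH oxidase to change (3.12% against 0.916% of all genes). The oxidase gene NOX1 was not among those tested. CDH23, a cadherin of hair-cell tip links, had 48.4 and 37.05 CPM in Short, 27.1 and 33.9 in Long and 9.89 and 11.1 in THX pools. It fell 4.07-fold (log2 difference −2.03 with SE 0.169, adjusted p = 0.0135). CDH23 was the 1 change among 28 tested tight junction and adhesion genes (3.57% against 0.916% of all genes).

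Among the other large falls were SERTAD4 (4.91-fold, log2 difference −2.301 with SE 0.237, adjusted p = 0.0201) and BRINP1, a gene induced by BMP and retinoic acid in neural cells (4.68-fold, log2 difference −2.22 with SE 0.335, adjusted p = 0.0421). SERTAD4 had 22.9 and 16.5 CPM in the Short and 4.66 and 3.37 in the THX pools, and BRINP1 11.05 and 14.4 against 1.72 and 3.71. CTNND2, or delta-catenin, had 21.1 and 17.4 CPM in Short, 14.9 and 16.8 in Long and 6.21 and 5.26 in THX pools, and fell 3.35-fold (log2 difference −1.75 with SE 0.155, adjusted p = 0.0142). HHLA2, a B7-family ligand of immune receptors, had 52.5 and 36.2 CPM in Short, 21.8 and 25.6 in Long and 15.9 and 11.6 in THX pools, and fell 3.24-fold (log2 difference −1.698 with SE 0.219, adjusted p = 0.0306). A gene listed as PR, of which the files give no further description, had 8.15 and 5.099 CPM in the Short and 2.13 and 1.45 in the THX pools (log2 difference −1.895 with SE 0.298, adjusted p = 0.0455). Its Long pools, at 2.35 and 2.503 CPM, lay close to the THX pools, while those of SERTAD4 (16.1 and 20.5 CPM) and BRINP1 (12.6 and 12.2 CPM) lay near or within the Short range. With 1 pool left out CTNND2 passed in 5 of 6 fits (not without Short pool 1), SERTAD4 in 3, BRINP1 and HHLA2 in 2, and PR in 1.

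**Figure D2:**
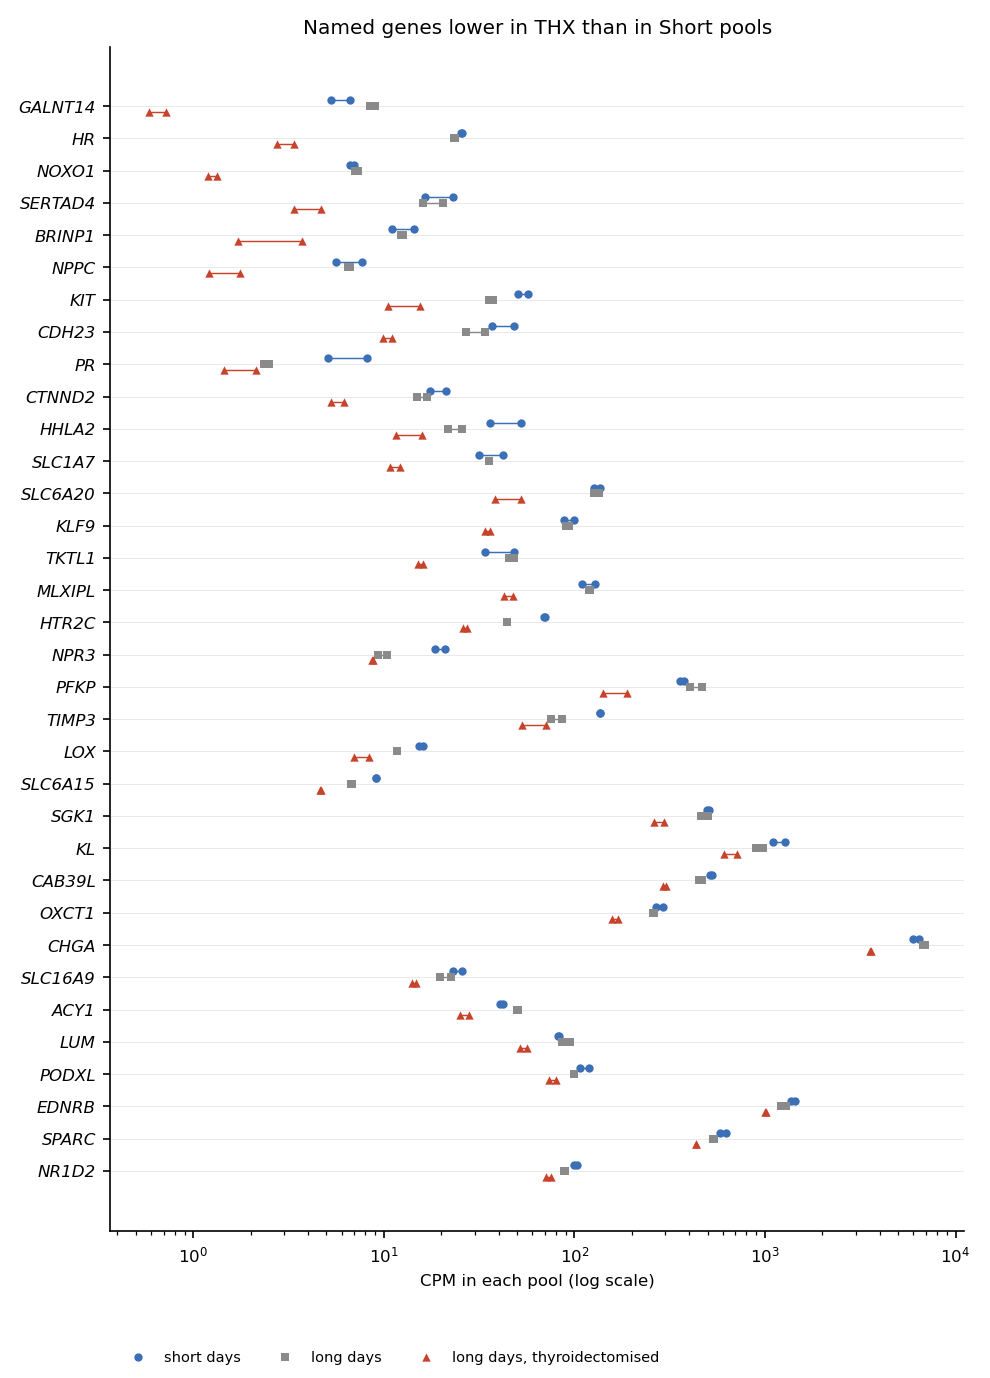
CPM of each pool (horizontal axis, log scale) for the named genes that fell, with Short pools as blue circles, Long pools as grey squares and THX pools as red triangles, each pair joined by a line. In every gene shown both THX pools lie below both Short pools, and the grey squares lie near the Short pools for HR, NOXO1, KLF9, MLXIPL and SLC6A20 but near the THX pools for NPR3.

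Single receptor or coreceptor genes for serotonin, klotho-dependent signals, natriuretic peptides (the clearance receptor), endothelin and stem cell factor fell. The related NPR1, NPR2 and EDNRA, also tested, did not pass. Of 45 tested receptors for hormones, serotonin and growth factors, 5 fell (11.1% against 0.599% of all genes) and none rose, with 36 below 0 and a median of −0.21. HTR2C, the serotonin 2C receptor that is abundant in this epithelium, had 70.4 and 69.4 CPM in Short, 44.4 and 44.1 in Long and 27.2 and 26.1 in THX pools. It fell 2.62-fold (log2 difference −1.39 with SE 0.0726, adjusted p = 0.00168), and the Long pools lay between the other 2 groups. KL, or klotho, a coreceptor for FGF23 that is also shed into the fluid, had 1278 and 1098 CPM in Short, 893 and 978 in Long and 715 and 608 in THX pools, and fell 1.797-fold (log2 difference −0.85 with SE 0.116, adjusted p = 0.033).

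NPR3, the clearance receptor for natriuretic peptides, had 20.9 and 18.6 CPM in Short, 10.4 and 9.31 in Long and 8.71 and 8.83 in THX pools. It fell 2.25-fold (log2 difference −1.17 with SE 0.125, adjusted p = 0.0216), and the Long pools were close to the THX pools. The endothelin B receptor EDNRB had 1436 and 1366 CPM in Short, 1292 and 1219 in Long and 995 and 1017 in THX pools, and fell 1.39-fold (log2 difference −0.48 with SE 0.076, adjusted p = 0.0475). KIT, the stem cell factor receptor, had 57.4 and 50.3 CPM in Short, 37.6 and 35.7 in Long and 15.4 and 10.5 in THX pools, and fell 4.16-fold (log2 difference −2.06 with SE 0.178, adjusted p = 0.0139). HTR2C passed in all 6 fits with 1 pool left out and KIT in all but that without Short pool 1, while KL, NPR3 and EDNRB passed in 1, that without THX pool 1. KIT is also a mast cell marker: the summed level of the 9 tested of 15 mast cell and granulocyte markers, which includes KIT, was 93.5 and 91.5 CPM in the Short and 49.3 and 50.04 CPM in the THX pools. Without KIT the other 8 summed to 36.1 and 41.2 CPM in the Short and 33.9 and 39.6 CPM in the THX pools, ranges that overlap. Of the other mast cell genes, MS4A2 had 0.154 and 0.12 CPM in the Short and 0.0352 and 0.0452 in the THX pools, TPSB2 had 0.887 and 1.67 against 0.475 and 1.295, and CPA3 and CMA1 were too low to be tested.

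Among genes of ion and water transport, 2 rose and 1 fell of 41 tested, where 0.316% of all genes rose and 0.599% fell, and 29 were below 0 (median −0.23), as were 51% of all genes. WNK4, a kinase that controls chloride cotransporters, had 42.02 and 39.5 CPM in Short, 44.9 and 55.4 in Long and 82.3 and 77.9 in THX pools, and rose 1.96-fold (log2 difference 0.97 with SE 0.112, adjusted p = 0.0241). CAB39L, a scaffold that activates the cotransporter kinase STK39, had 529.9 and 513 CPM in Short, 466 and 452 in Long and 301 and 290.2 in THX pools, and fell 1.76-fold (log2 difference −0.82 with SE 0.0717, adjusted p = 0.0139). STK39 itself had 147 and 139.7 CPM in the Short and 239 and 199.7 in the THX pools and did not pass the test (log2 difference 0.61 with SE 0.102, adjusted p = 0.0539). ATP1B2, a beta subunit of the sodium pump, had 274 and 284 CPM in Short, 284 and 290.2 in Long and 372 and 389.5 in THX pools, and rose 1.37-fold (log2 difference 0.45 with SE 0.0707, adjusted p = 0.0454). The cotransporter gene SLC12A2 (589 and 445 CPM in the Short, 382 and 293 in the THX pools, log2 difference −0.61 with SE 0.165, adjusted p = 0.116) and the water channel gene AQP1 (154 and 157 against 159.8 and 144 CPM, log2 difference −0.03 with SE 0.0916, adjusted p = 0.845) did not pass. WNK4 and CAB39L passed in 3 of the 6 fits with 1 pool left out and ATP1B2 in 1.

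Of 56 tested transporters of amino acids, sugars, vitamins and drugs, 4 fell (7.14% against 0.599% of all genes) and none rose. SLC6A20, a sodium-coupled carrier of proline and other imino acids, had 136 and 126 CPM in Short, 127 and 134 in Long and 38.5 and 52.4 in THX pools. It fell 2.88-fold (log2 difference −1.53 with SE 0.143, adjusted p = 0.0153). SLC1A7, a glutamate transporter, had 31.5 and 42.5 CPM in Short, 35.4 and 35.5 in Long and 10.8 and 12.2 in THX pools, and fell 3.21-fold (log2 difference −1.68 with SE 0.153, adjusted p = 0.0145). The neutral amino acid carrier SLC6A15 went from 9.07 and 9.14 CPM in the Short to 4.68 and 4.62 in the THX pools (log2 difference −0.97 with SE 0.138, adjusted p = 0.0354). SLC16A9, of the monocarboxylate transporter family, went from 25.7 and 23.0 to 14.7 and 14.1 CPM (log2 difference −0.76 with SE 0.113, adjusted p = 0.0399). The citrate transporter SLC13A5, outside that list, rose 2.13-fold, with 4.09 and 4.501 CPM in the Short and 8.33 and 9.99 in the THX pools (log2 difference 1.09 with SE 0.171, adjusted p = 0.045). SLC1A7 passed in 4 of the 6 fits with 1 pool left out, SLC6A20 in 3, and SLC6A15, SLC16A9 and SLC13A5 in 1.

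In energy metabolism single enzymes of glycolysis and ketone use fell. PFKP, the platelet-type phosphofructokinase of glycolysis, had 358 and 376 CPM in Short, 403 and 469.8 in Long and 141 and 189 in THX pools, and fell 2.22-fold (log2 difference −1.15 with SE 0.146, adjusted p = 0.0294). TKTL1, a transketolase-like protein, had 48.4 and 33.8 CPM in Short, 45.5 and 48.1 in Long and 16.1 and 15.05 in THX pools, and fell 2.64-fold (log2 difference −1.404 with SE 0.165, adjusted p = 0.0245). They were the 2 of 26 tested glycolysis and pentose phosphate genes to change (against 0.916% of all genes), while 21 of the 26 were above 0 (median 0.09, and −0.01 without TMM scaling). The list mean of log2 CPM, centred on each gene's mean over the 6 pools, includes PFKP and TKTL1. It was −0.05 and −0.06 in Short, 0.06 and 0.11 in Long and −0.10 and 0.03 in THX pools, so THX pool 1 lay below both Short pools. Of 36 tested genes of fatty acid synthesis and oxidation, 3 fell (against 0.599% of all genes), none rose and 27 were below 0 (median −0.16), as were 51% of all genes. Beside MLXIPL these included OXCT1, which starts the use of ketone bodies (294 and 269 CPM in the Short, 169.9 and 157 in the THX pools, log2 difference −0.78 with SE 0.0803, adjusted p = 0.0201). OXCT1 passed in 3 of the 6 fits with 1 pool left out and PFKP and TKTL1 in 2.

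Genes of amino acid synthesis had mostly positive differences, with 16 of 21 tested members above 0 (median 0.23) and 2 that rose (against 0.316% of all genes). CSAD, an enzyme of taurine synthesis, had 341 and 332 CPM in Short, 344 and 347 in Long and 511 and 511 in THX pools, and rose 1.52-fold (log2 difference 0.60 with SE 0.0683, adjusted p = 0.0237). PYCR1, which makes proline, had 18.3 and 18.4 CPM in Short, 17.5 and 17.4 in Long and 28.4 and 28.98 in THX pools, and rose 1.56-fold (log2 difference 0.65 with SE 0.0864, adjusted p = 0.0329). The serine synthesis gene PHGDH, with 639 and 661 CPM in the Short and 964 and 921 in the THX pools, did not pass (log2 difference 0.54 with SE 0.0944, adjusted p = 0.0573). SGK1, a kinase induced by glucocorticoids and mineralocorticoids, had 511 and 494 CPM in Short, 464 and 504 in Long and 262 and 295 in THX pools, and fell 1.805-fold (log2 difference −0.85 with SE 0.089, adjusted p = 0.0209). SGK1 and KLF9 were the 2 of 19 tested glucocorticoid response genes to change (10.5% against 0.916% of all genes). Of the 19, 9 were above 0 and 10 below (median −0.02). CSAD and SGK1 passed in 2 of the 6 fits with 1 pool left out and PYCR1 in 1.

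Several abundant secreted proteins rose. Of 22 tested abundant proteins of the fluid, 5 passed the test (22.7% against 0.916% of all genes), 4 rising and SPARC falling, and 16 were above 0 (median 0.26). APOA1, the main apolipoprotein of high-density lipoprotein, had 1861 and 1769 CPM in Short, 2409 and 2041 in Long and 4151 and 3802 in THX pools. It rose 2.19-fold (log2 difference 1.13 with SE 0.104, adjusted p = 0.0145). IGFBP2, a binding protein of insulin-like growth factors, had 1246 and 1334 CPM in Short, 1731 and 1726 in Long and 2321 and 2889 in THX pools, and rose 2.02-fold (log2 difference 1.01 with SE 0.114, adjusted p = 0.0237). CST3, the protease inhibitor cystatin C, had 2251 and 2173 CPM in Short, 2615 and 2693 in Long and 3399 and 3629.6 in THX pools, and rose 1.59-fold (log2 difference 0.67 with SE 0.0765, adjusted p = 0.0241). GSN, the actin-severing protein gelsolin, had 383 and 420.4 CPM in Short, 622 and 538 in Long and 729 and 686 in THX pools, and rose 1.76-fold (log2 difference 0.82 with SE 0.0989, adjusted p = 0.0267). In these 4 genes the Long pools lay between the Short and the THX pools. APOA1 passed in 4 of the 6 fits with 1 pool left out and IGFBP2, CST3 and GSN in 2.

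Of 46 tested secreted peptides, growth factors and antagonists of Wnt or BMP, 5 rose and 2 fell, where 0.316% of all genes rose and 0.599% fell, with a median of 0.04 (−0.06 without TMM scaling). The Wnt and BMP antagonist SOSTDC1 had 2.68 and 2.47 CPM in Short, 2.34 and 2.52 in Long and 6.76 and 6.43 in THX pools, and rose 2.56-fold (log2 difference 1.35 with SE 0.173, adjusted p = 0.0306). SOST, or sclerostin, a Wnt antagonist best known from bone, had 7.92 and 7.01 CPM in Short, 5.48 and 5.24 in Long and 18.2 and 15.7 in THX pools, and rose 2.27-fold (log2 difference 1.18 with SE 0.143, adjusted p = 0.0267). The Wnt antagonist SFRP5, named after its value was seen, had 589 and 544 CPM in the Short and 854 and 851 in the THX pools (log2 difference 0.59 with SE 0.0768, adjusted p = 0.0319). ECRG4 (listed as C3H2orf40), a secreted peptide precursor made by choroid plexus epithelium, had 827 and 945 CPM in Short, 1279 and 1147 in Long and 1829 and 1869.8 in THX pools. It rose 2.09-fold (log2 difference 1.06 with SE 0.0977, adjusted p = 0.0145), and IGFBP2 was the fifth riser.

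The 2 that fell were NPPC and CHGA. NPPC, the precursor of C-type natriuretic peptide, had 5.62 and 7.65 CPM in Short, 6.62 and 6.46 in Long and 1.21 and 1.76 in THX pools, and fell 4.46-fold (log2 difference −2.15 with SE 0.25, adjusted p = 0.0244). CHGA, chromogranin A of secretory granules, had 5955 and 6413 CPM in Short, 6745 and 6955 in Long and 3622 and 3568 in THX pools, and fell 1.72-fold (log2 difference −0.78 with SE 0.0762, adjusted p = 0.0167). VMO1, a secreted protein first known from egg yolk membranes, had 18.7 and 21.3 CPM in Short, 35.9 and 23.4 in Long and 57.9 and 47.9 in THX pools, and rose 2.65-fold (log2 difference 1.41 with SE 0.205, adjusted p = 0.038). CHGA and VMO1 were the 2 of 15 tested seasonal timing genes to change (13.3% against 0.916% of all genes). Of the 15, 4 were above 0 and 11 below (median −0.22). TSHR, MTNR1A, MTNR1B and DIO3 were among the listed genes that were not tested. With 1 pool left out ECRG4 and VMO1 passed in 3 of 6 fits, SOST, NPPC and CHGA in 2, and SOSTDC1 and SFRP5 in 1.

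**Figure D3:**
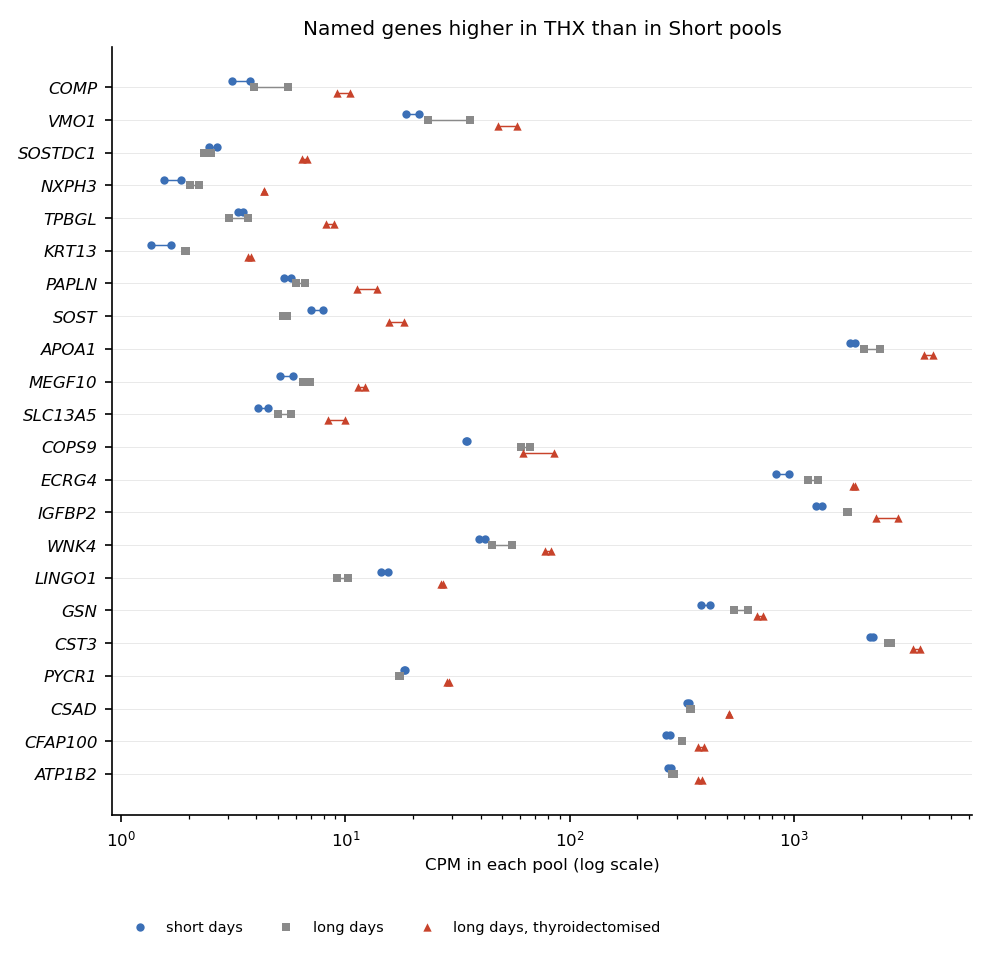
CPM of each pool (horizontal axis, log scale) for the named genes that rose, with symbols as in the plot of the genes that fell. Both THX pools lie above both Short pools in every gene shown, and the Long pools lie between them for APOA1, IGFBP2, CST3, GSN and ECRG4 but below the Short pools for SOST and LINGO1.

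Of the remaining large rises, COMP, a matrix protein of cartilage, had 3.11 and 3.76 CPM in Short, 5.53 and 3.92 in Long and 9.17 and 10.5 in THX pools, and rose 2.87-fold (log2 difference 1.52 with SE 0.218, adjusted p = 0.036). PAPLN, the matrix protein papilin, had 5.32 and 5.72 CPM in the Short and 13.9 and 11.2 in the THX pools (log2 difference 1.18 with SE 0.161, adjusted p = 0.033). The neurexin ligand NXPH3 (1.56 and 1.85 against 4.35 and 4.32 CPM, log2 difference 1.35 with SE 0.201, adjusted p = 0.0399) and the engulfment receptor MEGF10 (5.82 and 5.099 against 12.3 and 11.4 CPM, log2 difference 1.11 with SE 0.146, adjusted p = 0.0319) rose as well. So did the keratin gene KRT13 (1.36 and 1.67 against 3.68 and 3.81 CPM, log2 difference 1.31 with SE 0.21, adjusted p = 0.0486) and TPBGL (3.49 and 3.33 against 8.22 and 8.86 CPM, log2 difference 1.32 with SE 0.173, adjusted p = 0.0319). COPS9, a subunit of the COP9 signalosome, had 34.9 and 34.5 CPM in Short, 60.4 and 66.6 in Long and 61.9 and 85.2 in THX pools, and rose 2.12-fold (log2 difference 1.08 with SE 0.148, adjusted p = 0.033). Its Long pools lay near the lower of the THX pools. PAPLN and COPS9 passed in 2 of the 6 fits with 1 pool left out, and the other 5 in 1.

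Genes of the extracellular matrix had mostly negative differences. Of 62 tested collagens and matrix genes 50 were below 0 and 12 above, with a median of −0.34 that ranged from −0.45 without TMM scaling to −0.21 without Short pool 2. The 4 that passed the test (6.45% against 0.599% of all genes) all fell, while the matrix genes COMP and PAPLN, above, stand outside this list. TIMP3, an inhibitor of matrix proteases, had 136 and 136 CPM in Short, 75.7 and 86.2 in Long and 71.2 and 53.3 in THX pools, and fell 2.19-fold (log2 difference −1.13 with SE 0.14, adjusted p = 0.0283). LOX, which crosslinks collagen and elastin, had 16.1 and 15.3 CPM in Short, 11.7 and 11.8 in Long and 8.34 and 6.96 in THX pools, and fell 2.06-fold (log2 difference −1.04 with SE 0.134, adjusted p = 0.0306). The proteoglycan gene LUM went from 82.5 and 82.8 CPM in the Short to 52.1 and 56.7 in the THX pools (log2 difference −0.60 with SE 0.0855, adjusted p = 0.0351), and the matricellular SPARC from 626 and 584 to 435 and 437 CPM (log2 difference −0.47 with SE 0.0739, adjusted p = 0.045). COL3A1, with 138 and 172 CPM in the Short and 88.4 and 112 in the THX pools, did not pass (log2 difference −0.63 with SE 0.151, adjusted p = 0.0964). TIMP3 passed in 2 of the 6 fits with 1 pool left out, and LOX, LUM and SPARC in 1.

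The summed fibroblast markers were lower in both THX pools than in both Short pools. Of 19 tested fibroblast markers, which include LUM and COL3A1, 14 were below 0 (median −0.39), and their summed level was 1193 and 1484 CPM in the Short, 1419 and 1336 CPM in the Long and 921 and 1105 CPM in the THX pools. Of 13 tested pericyte and smooth muscle markers 11 were below 0 (median −0.26), and their summed level was 1697 and 2020 CPM in the Short and 1477 and 1619 CPM in the THX pools. The endothelial markers summed to 1305 and 1597 CPM in the Short and 1332 and 1374 CPM in the THX pools, and 1 of 19, PODXL, fell (108 and 119 against 79.9 and 73.3 CPM, log2 difference −0.57 with SE 0.0854, adjusted p = 0.0421) and passed in 1 of the 6 fits with 1 pool left out. PODXL made up 5.26% of the tested endothelial markers, where 0.599% of all tested genes fell. The part of stromal cell content in the lower matrix genes was not tested.

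**Figure D4:**
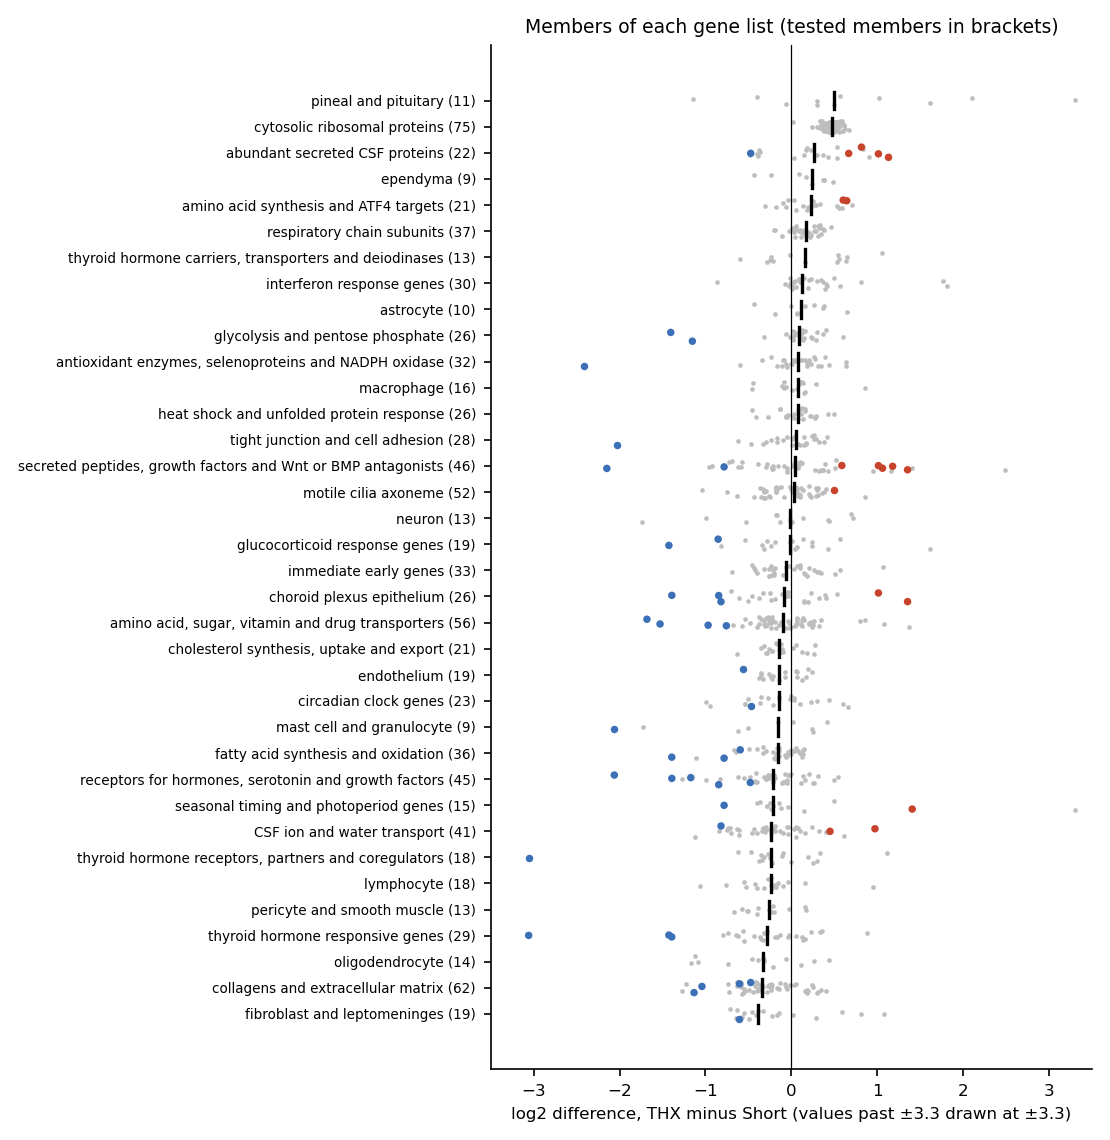
Log2 difference between THX and Short pools (horizontal axis) of each tested member of the gene lists with at least 5 tested members, ordered by the list median (black bar), with members that rose in red, members that fell in blue and the others in grey (values past the axis limits are drawn at the limits). The cytosolic ribosomal proteins all lie above 0 with none past the test, while the collagen and fibroblast lists lie mostly below 0.

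All 75 tested cytosolic ribosomal protein genes were above 0, from 0.02 for RPL34 to 0.67 for RPL28, and none of them passed the test. Their median was 0.48 (0.37 without TMM scaling). As a mean over the list of log2 CPM, centred on each gene's mean over the 6 pools, the Short pools were at −0.35 and −0.19, the Long pools at 0.10 and 0.05 and the THX pools at 0.07 and 0.33. THX pool 1 therefore lay within the range of the Long pools and THX pool 2 above it. RPS15A, for example, had 325 and 358 CPM in Short, 434 and 432 in Long and 465 and 523 in THX pools (log2 difference 0.53 with SE 0.0897, adjusted p = 0.0552). RPL36A, which was not in the list and is named after its value was seen, rose, with 145 and 157 CPM in the Short and 227 and 259.9 in the THX pools (log2 difference 0.69 with SE 0.0908, adjusted p = 0.0322), and passed in 1 of the 6 fits with 1 pool left out. Of 53 listed respiratory chain subunits 37 were tested, and UQCRC1, UQCRC2, CYC1 and COX4I1 were among those that were not. Of the 37, 33 were above 0 and none passed. Their median was 0.17, 0.07 without TMM scaling and 0.05 without THX pool 2. On the same centred scale the Short pools were at −0.16 and −0.10, the Long pools at 0.08 and 0.13 and the THX pools at −0.09 and 0.14. THX pool 1 thus lay near Short pool 2, and THX pool 2 near Long pool 2.

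Single members changed in 2 further lists, of clock genes (4.35%) and ciliary axoneme genes (1.92%), against 0.916% of all tested genes. Of the axoneme genes 28 were above 0 and 24 below (median 0.03), and of the clock genes 9 and 14 (median −0.15). NR1D2, the clock repressor REV-ERB beta, had 103 and 99.4 CPM in Short, 89.6 and 88.01 in Long and 75.4 and 71.2 in THX pools, and fell 1.38-fold (log2 difference −0.46 with SE 0.0723, adjusted p = 0.045), the 1 call among 23 tested clock genes. CFAP100, a protein of motile cilia, had 278 and 267 CPM in Short, 315 and 317 in Long and 372 and 395 in THX pools, and rose 1.41-fold (log2 difference 0.49 with SE 0.0724, adjusted p = 0.039), 1 of 52 tested ciliary axoneme genes. Both passed in 1 of the 6 fits with 1 pool left out. None of the tested genes of cholesterol metabolism (21), the immediate early response (33), heat shock and unfolded protein response (26) or the interferon response (30) passed the test.

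Markers from outside the choroid plexus varied between pools. The 11 tested pineal and pituitary genes summed to 228 and 78.6 CPM in the Short, 37.4 and 146 CPM in the Long and 746 and 242 CPM in the THX pools. PRL, the pituitary hormone prolactin, had 133 and 50.6 CPM in Short, 19.3 and 50.1 in Long and 588 and 201 in THX pools and did not pass the test (log2 difference 2.104 with SE 0.678, adjusted p = 0.148). TSHB, the beta subunit of thyrotropin, had 0.284 and 0.598 CPM in Short, 0.268 and 15.9 in Long and 16.4 and 1.93 in THX pools (log2 difference 4.44 with SE 1.76, adjusted p = 0.2). Without PRL the other 10 summed to 95.9 and 28.003 CPM in the Short, 18.1 and 96.3 in the Long and 158 and 40.5 in the THX pools. The highest values of both PRL and TSHB lay in THX pool 1, and their part in the changes above was not tested. Of 16 oligodendrocyte markers 14 were tested and none passed, with 11 below 0 and 3 above. Their median was −0.32, and −0.06 among genes with a mean of at least 5 CPM. The 14 summed to 153 and 160 CPM in the Short, 154 and 169 in the Long and 146 and 146 in the THX pools. The markers OLIG1 and OLIG2 were too low to be tested.

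Since the THX against Short difference is the sum of 2 parts that share the Long pools, each gene's parts are given side by side. At the same threshold 51 genes (0.283%) differed between THX and Long pools and 0 between Long and Short pools in edgeR's test, where 2486 genes (13.8%) had an unadjusted p under 0.05. HR had a log2 difference of −2.94 between THX and Long (SE 0.128) and of −0.11 between Long and Short (SE 0.114). For KLF9 these were −1.38 and −0.04, for MLXIPL −1.402 and 0.01, and for SLC6A20 −1.53 and −0.0022, so the sums were close to the THX minus Long values, though the difference between the parts did not pass its test (adjusted p = 0.108, 0.127 and 0.309 for the contrast defined in the next paragraph). HTR2C split into −0.73 (SE 0.0721) and −0.66 (SE 0.0713), and KL into −0.50 (SE 0.116) and −0.34 (SE 0.116). NPR3 had −0.17 (SE 0.125) and −1.003 (SE 0.124), and COPS9 0.21 (SE 0.146) and 0.87 (SE 0.148), with the larger value in the day-length part. For neither gene did the difference between the parts pass that test (adjusted p = 0.76 for COPS9). IGFBP2 had 0.59 and 0.42, ECRG4 0.61 and 0.45, and CST3 0.41 and 0.26, and none of these 6 values passed the threshold.

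Whether the 2 parts differed was tested directly, as (THX minus Long) minus (Long minus Short). This step difference passed for 3 genes (0.0166%), GALNT14, HR and LOC114115315, and 1107 genes (6.14%) had an unadjusted p under 0.05. For HR it was −2.83 (adjusted p = 0.0175). GALNT14 was 0.54 between Long and Short and −3.74 between THX and Long, a step difference of −4.28 (adjusted p = 0.0217). LOC114115315 had 104 and 116 CPM in Short, 135 and 119 in Long and 27.3 and 26.6 in THX pools, a step difference of −2.45 (adjusted p = 0.0175). The next lowest p belonged to LINGO1, an inhibitor of myelination and axon growth, with 14.5 and 15.6 CPM in Short, 9.15 and 10.3 in Long and 26.8 and 27.2 in THX pools. Its parts had opposite signs, −0.62 and 1.47, and the step difference did not pass (2.096, adjusted p = 0.0636), though the sum did (log2 difference 0.85 with SE 0.107, adjusted p = 0.0294, passing in 1 of the 6 fits with 1 pool left out). NOXO1 (−2.58, adjusted p = 0.084), KLF9 (−1.34) and the aminoacylase ACY1 (−1.21, adjusted p = 0.122) did not pass it either. With a Short pool left out it passed for 1 (pool 1) or 0 (pool 2) genes, with a Long pool left out for 6 (pool 1) or 0 (pool 2), and with a THX pool left out for 3 (pool 1) or 10 (pool 2). GALNT14, HR and LOC114115315 did not pass in the 4 fits without a Short or a Long pool, 2 of them passed without THX pool 1 and all 3 without THX pool 2. A step difference short of the threshold does not show that the parts were equal.

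**Figure D5:**
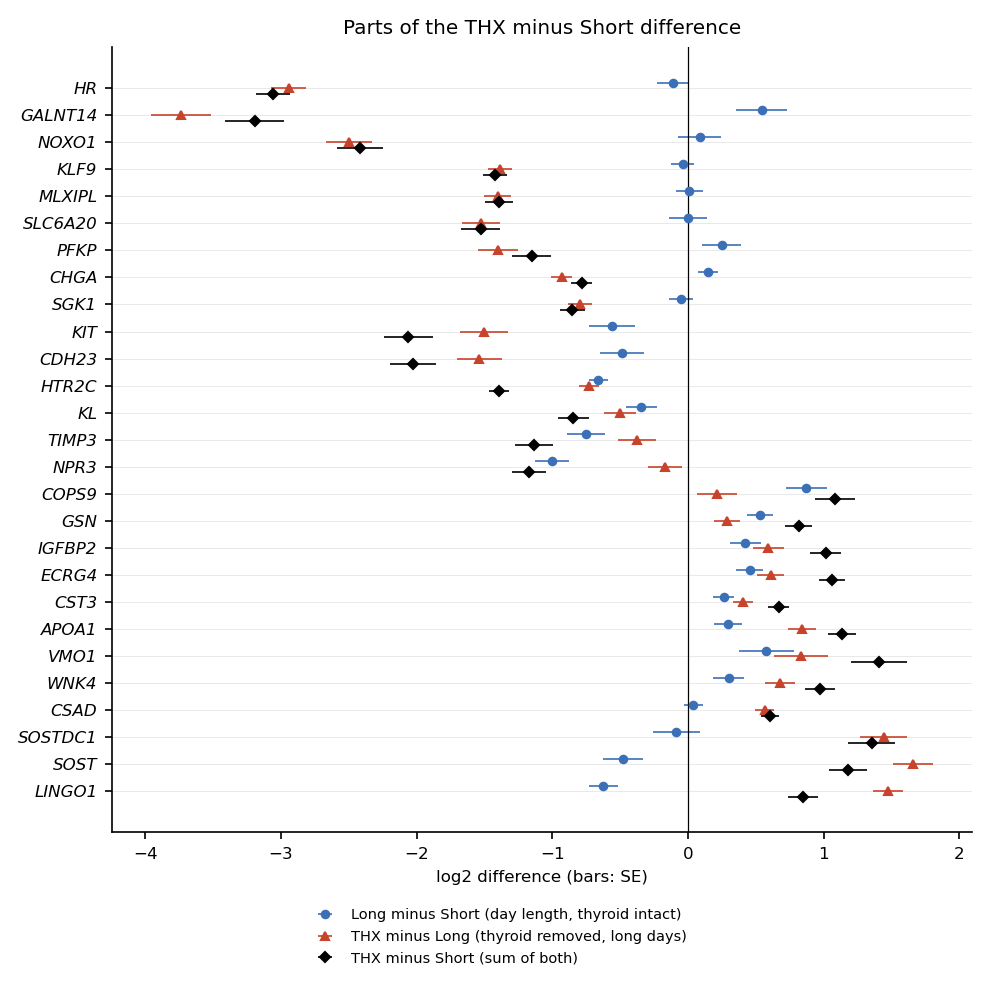
Log2 differences with SE bars for Long minus Short (blue circles), THX minus Long (red triangles) and their sum THX minus Short (black diamonds) in 27 named genes. For HR, KLF9 and MLXIPL the blue circles lie at 0 within about 1 SE and the sums lie close to the red triangles, while HTR2C, KL, IGFBP2 and ECRG4 have both parts on the same side of 0 and SOST and LINGO1 have them on opposite sides.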

How the data were processed

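Choroid plexus polyA RNA was sequenced in 6 pools, from stranded mRNA libraries, per the labels. The authors deposited raw, unnormalised counts of reads for each gene. The submitters' processing notes name featureCounts 2.0.0, TopHat2 2.1.1, SAMtools 1.9, bcl2fastq 2.20, MultiQC 1.9 and FastQC 0.11.8. The build, the annotation and the strand option used in counting were not given in the sources used here. Counts of overlapping or antisense genes are uncertain for that reason, and no positions are given. Names came from the file and, for 471 identifiers without a symbol, from the RefSeq gene table.

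Genes were filtered by edgeR 4.0.16 with its default expression filter by group (R 4.3.3), scaled by TMM factors and fitted over all 6 pools with 1 mean per group by the quasi-likelihood method, with 3 residual and 3.96 prior degrees of freedom (common biological coefficient of variation 0.151). Two-sided F tests were adjusted over the 18019 tested genes by the Benjamini-Hochberg method. The SE given with a log2 difference is the absolute value of that difference divided by the square root of its F statistic. The 2 pools of a group differed by 15.8 to 70.4 times the variance that counting alone gives, so no pair of pools is 1 library sequenced again. The script was tested on simulated data.

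The groups, the 24 function lists, the 13 cell type lists and the tests were chosen with earlier results of these data known, so a count over a list is a description. Named genes were the 12 largest rises and 12 largest falls among called genes that had a symbol, averaged at least 2 CPM and showed no overlap of pools, the 6 called genes with the most counts, up to 4 members of each described list with the lowest p, 12 genes always named, and the 6 lowest p of the step difference. PRLR, one of the 12, was not matched and was not analysed here, and 1 gene that the rule chose is not reported here. Alternatives covered scaling, filter, tool (DESeq2 1.42.0 and voom of limma 3.58.1), spread estimate, pools in the fit, threshold, the omission of each pool and a term for the pool number. Figures used Python 3.11.15 and matplotlib 3.10.9.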

Additional observations from a re-analysis of the deposited data

How the results depend on the processing

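The number of genes changed (165, of which 57 rose and 108 fell) moved with several choices. It was 1738 (865 and 873) with DESeq2, 176 with voom of limma, 908 (419 and 489) with no filter on low counts, 250 (92 rose) with robust moderation, 259 (210 fell) without TMM scaling and 11 (1 and 10) with only the Short and THX pools in the fit. At an adjusted p under 0.01 it was 8 (0 and 8), and under 0.10 it was 922 (438 and 484). At an unadjusted p under 0.05 edgeR passed 4078 genes and DESeq2 4069. Leaving out 1 pool gave 10 to 1087 genes changed, 0 to 596 higher, 10 to 491 lower and 0 to 10 with a step difference, and DESeq2 gave 104 with a step difference. The causes were not tested. Of the named genes' signs 4 turned under an alternative, all in genes that did not pass: DIO1 (−0.47 without THX pool 1), AQP1 (0.047 without THX pool 2) and TPSB2 (0.0069 without Short pool 2, 0.041 without THX pool 1). With 1 pool left out these ran from −0.47 to 0.63, from −0.11 to 0.047 and from −1.40 to 0.041.

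With the replicate block, a term for the pool number, 392 genes changed (160 higher, 232 lower) and the step difference passed for 3. No label pairs the pools by number. Deviations of same-numbered pools correlated at −0.015 (Short and Long), 0.354 (Short and THX) and 0.158 (Long and THX) across 13703 genes. Whether same-numbered pools share a factor was not tested.

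With 2 pools per group and 3 residual degrees of freedom, small changes could not be told from the spread: the median SE of the log2 difference was 0.0872 for genes over 100 CPM and 0.49 for genes under 1 CPM.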

Other observations

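Some called genes outside the rule for naming, chosen after their values were seen, add to the groups above. NXNL1, a thioredoxin-like protein of rods and cones, had 49 and 35 counts in Short, 44 and 52 in Long and 0 and 1 in THX pools (adjusted p = 0.0244). The cone arrestin ARR3 had 1.597 and 1.93 CPM in Short, 1.09 and 1.88 in Long and 0.141 and 0.166 in THX pools (log2 difference −3.499 with SE 0.4, adjusted p = 0.0241). The photoreceptor transcription factor CRX, also a pineal marker, had 0.828 and 1.47 CPM in the Short and 0.458 and 0.572 in the THX pools and did not pass (log2 difference −1.14 with SE 0.519, adjusted p = 0.244). NXNL1 and ARR3 passed in 1 of the 6 fits with 1 pool left out.

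PRODH, which breaks down proline, had 781 and 757 CPM in Short, 867 and 897 in Long and 1121 and 1265 in THX pools (log2 difference 0.63 with SE 0.0856, adjusted p = 0.033). The fructose transporter SLC2A5 had 10.4 and 11.9 CPM in Short, 10.01 and 11.9 in Long and 3.66 and 4.88 in THX pools (log2 difference −1.38 with SE 0.19, adjusted p = 0.033). The water channel AQP5 had 23.5 and 23.98 CPM in the Short and 11.2 and 13.3 in the THX pools (log2 difference −0.95 with SE 0.11, adjusted p = 0.0244), and the sodium-calcium exchanger SLC8A1 had 211 and 184 against 108 and 103 (log2 difference −0.91 with SE 0.0871, adjusted p = 0.0162). The transcription factor NFIX went from 233 and 219 to 129.7 and 136 CPM (log2 difference −0.77 with SE 0.0732, adjusted p = 0.0159). The complement genes CFB (678 and 768 CPM in the Short, 1098 and 1063 in the THX pools, log2 difference 0.58 with SE 0.086, adjusted p = 0.0398) and SERPING1 (233 and 252 against 364 and 375 CPM, log2 difference 0.61 with SE 0.086, adjusted p = 0.0351) rose. With 1 pool left out NFIX and SLC8A1 passed in 3 of 6 fits, SLC2A5 and AQP5 in 2, and PRODH, CFB and SERPING1 in 1.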
